A study of Homo sapiens with 16 samples.

Results

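The genes that make, degrade and regulate the polyamines were examined in the 16 RNA-Seq libraries of a Gemin5 silencing study. The 9 genes were taken by symbol from a fixed list: ODC1, AMD1, SRM and SMS for synthesis, OAZ1, OAZ2 and AZIN1 for the control of ornithine decarboxylase, and SAT1 and SMOX for breakdown. They are 9 of the 58302 gene identifiers in the count files. The list was chosen by the lower SRM values in Input after silencing, with results of these data in view, and for the textbook role of several others in translational control. Values of the 9 genes in the Input comparison of treatments are therefore given as a description, with no test.

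HEK293 is a human embryonic kidney cell line, and Gemin5 is an RNA-binding protein of the SMN complex, which assembles small nuclear ribonucleoproteins. The study asked which mRNAs change their association with polysomes when Gemin5 is silenced. Input was RNA from cytoplasmic lysates and Polysome was RNA from the polysomal part of sucrose gradients, after ribosomes had been stalled with cycloheximide. Each of the 4 groups held 4 libraries, described by the study as 4 independent biological samples of each kind of cell. siRNAG5 cells received 1 siRNA sequence against Gemin5 at 100 nM. Ctrl cells are called untreated in the labels. A control siRNA is described in the treatment protocol, and the study's immunoblot of the silencing names the siRNA control as Ctrl. The label was not reconciled with these. All groups were the same line grown in DMEM, with no other allele or agent named. In bulk RNA, fewer cells of a type and less RNA per cell cannot be told apart.

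Polyamines (putrescine, spermidine and spermine) are small positively charged molecules that bind RNA and are needed for growth and translation. Ornithine decarboxylase (ODC1) makes putrescine, S-adenosylmethionine decarboxylase (AMD1) supplies the aminopropyl donor, and spermidine synthase (SRM) and spermine synthase (SMS) add the aminopropyl groups. Antizymes (OAZ1, OAZ2) bind ornithine decarboxylase and send it to the proteasome without ubiquitin, and the antizyme inhibitor AZIN1 takes antizyme away from it. The acetyltransferase SAT1 and spermine oxidase (SMOX) act in the opposite direction, toward export and back-conversion. Polyamines feed back on the translation of several of these mRNAs: they promote a +1 frameshift on antizyme mRNA, and they hold ribosomes on a short upstream reading frame of AMD1 mRNA.

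The stretches of mRNA where this feedback is known to act are shown first, because the libraries count mRNA found with polysomes and do not tell at which codon or in which frame a ribosome sat. Both antizyme windows hold 30 bases of GRCh38 on the coding strand with the first in-frame stop codon in capitals. That of OAZ1 lies at chr19:2271431-2271460 (+ strand) and that of OAZ2 at chr15:64691498-64691527 (- strand), each within 1 coding exon. In capitals throughout, the upstream open reading frame of AMD1 at chr6:110874796-110874816 (+ strand) follows, in the 5′ untranslated part of its canonical transcript.
OAZ1: cggtggtgctccTGAtgcccctcacccacc
OAZ2: ctgtggtgctccTGAtgcccctcacccact
AMD1: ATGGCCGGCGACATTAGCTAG
The antizyme windows were identical at 28 of 30 positions, including the stop codon and the bases on either side of it. The stop codon came after 68 codons in OAZ1 and after 32 codons in OAZ2, and in both genes the annotated coding sequence leaves out the first base of that codon, as a +1 frameshift requires. The AMD1 frame has 6 codons before its stop and starts at base 12 of the transcript.

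Promoters of SRM and ODC1 are shown because both genes had lower values in siRNAG5 cells and both hold the E-box CACGTG (capitals), the palindrome, read alike on both strands, that MYC with MAX and other basic helix-loop-helix factors bind. They are RefSeq windows of 300 bases (GRCh38.p14), from 250 bases before to 50 after a transcription start, at chr1:11059969-11060268 for SRM and chr2:10447963-10448262 for the more downstream of the 2 starts of ODC1, both on the - strand and written 5′ to 3′.
SRM: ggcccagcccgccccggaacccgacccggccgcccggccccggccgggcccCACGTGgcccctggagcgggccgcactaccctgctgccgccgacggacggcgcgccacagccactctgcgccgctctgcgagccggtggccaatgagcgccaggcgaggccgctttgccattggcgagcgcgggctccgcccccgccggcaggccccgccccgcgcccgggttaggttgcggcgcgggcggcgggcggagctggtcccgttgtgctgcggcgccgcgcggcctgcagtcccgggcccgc
ODC1: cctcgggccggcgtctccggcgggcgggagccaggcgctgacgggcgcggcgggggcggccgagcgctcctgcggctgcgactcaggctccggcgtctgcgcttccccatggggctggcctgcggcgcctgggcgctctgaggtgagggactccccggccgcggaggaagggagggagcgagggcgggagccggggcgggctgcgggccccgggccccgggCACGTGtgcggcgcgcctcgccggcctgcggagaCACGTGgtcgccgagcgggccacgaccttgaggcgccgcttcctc
The SRM window held 1 match, whose first base lay at position -199 from the start. The ODC1 window held 2 matches, at -29 and at 6, counting the start as 1. Windows of 7 of the 9 genes were listed, and those of AMD1, SMS, OAZ1, OAZ2 and SAT1 and the other ODC1 start held none. That other start is where the canonical ODC1 transcript begins, so the ODC1 matches shown lie at an alternative start. Of 35097 promoter windows of all genes, 7.25% held the motif, and 8.77% of 27305 genes held it in 1 or more of their windows. At the transcription start itself, no listed start of these genes read C followed by 4 pyrimidines, the minimal form of a TOP start searched here, as 4.07% of all listed starts did. A match is a description of letters and not a measured binding site.

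Reads on genes numbered 11145324 to 24511299 per library, and each of the 9 genes had 101 to 29859 reads in every library. GEMIN5 mRNA fell in Input from 17.9 ± 2.32 to 6.72 ± 0.529 CPM (CPM, reads per 1000000 reads on genes after TMM scaling over the 16 libraries, mean ± SD, n = 4) and in Polysome from 7.44 ± 1.56 to 2.65 ± 0.495, with log2 FC -1.40 (adjusted p 3.11e-10) and -1.44 (adjusted p 0.00477) in edgeR's quasi-likelihood test. Libraries Polysome Ctrl 1, siRNAG5 1 and siRNAG5 4 stood apart from the other 5 Polysome libraries on the third principal component, across the treatments, and Polysome results are given with and without them below. These 3 were set apart by the expression values of the same data. Without them, 3 Polysome Ctrl and 2 Polysome siRNAG5 libraries remain. Reads of 10 liver genes summed to 127.78 and 111 CPM in Input Ctrl 3 and 4 and to 68.3 to 142 CPM in the Polysome Ctrl libraries, against 0.33 to 2.39 CPM in the other 10 libraries. In the siRNAG5 groups 4 (Input) and 5 (Polysome) of the 10 had no read at all, APOB, SERPINA1 and FGA among them in both, and the part of these reads in the results was not tested. The 5 HEK293 markers (PAX2, NEFM, VIM, KRT8, KRT18) were detected in each group, with sums of 451 to 1583 CPM, while 5 blood genes summed to at most 2.73 CPM and 5 brain genes to at most 5.89 CPM.

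Per length of mRNA, OAZ1 and SRM were the most abundant of the 9 and SMOX the least in each group. In Input Ctrl, CPM per kilobase of the union of exons was 505 ± 22.5 for OAZ1, 388 ± 30.3 for SRM, 146 ± 6.69 for ODC1 and 109 ± 4.97 for SMS (SD, n = 4). The remaining 5 lay far lower, at 20.0 ± 4.90 for SAT1, 13.2 ± 0.463 for OAZ2, 8.77 ± 0.80 for AMD1, 6.32 ± 0.604 for AZIN1 and 3.30 ± 0.473 for SMOX. Each step of this order in Input Ctrl was wider than the spread, in that neighbours did not overlap over their 4 libraries.

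**Figure D1:**
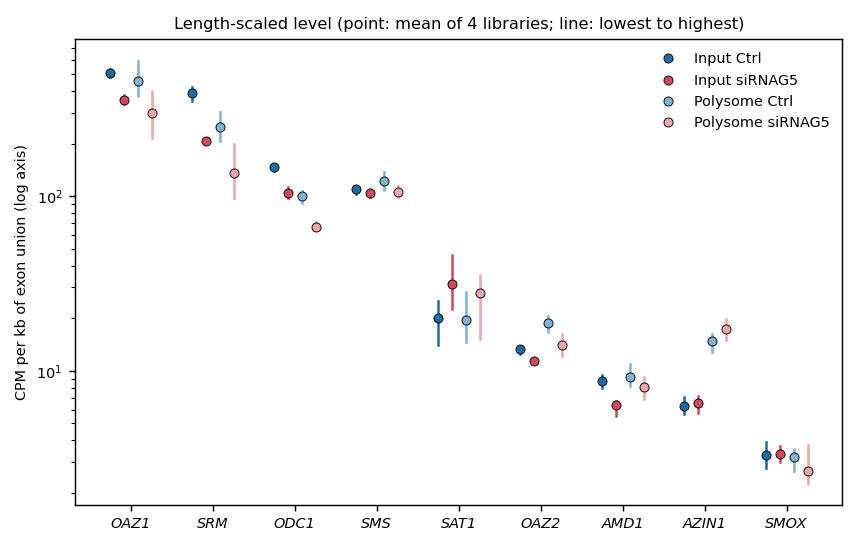
Length-scaled level of the 9 genes (CPM per kilobase of exon union, log axis, ordered by Input Ctrl) in the 4 groups, with points for the mean of 4 libraries and lines from the lowest to the highest. OAZ1 heads the order with 505 in Input Ctrl and SMOX ends it with 3.30, and AZIN1 stands at 6.32 in Input Ctrl and 14.7 in Polysome Ctrl.

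The order differed a little between groups. In Input siRNAG5, SMS (105 ± 5.18) and ODC1 (105 ± 6.10) overlapped, as did AZIN1 (6.50 ± 0.596) and AMD1 (6.33 ± 0.568). In both Polysome groups SMS stood above ODC1 and AZIN1 above AMD1, without overlap on this scale. In Polysome Ctrl, SAT1 (19.6 ± 6.08) overlapped OAZ2 (18.7 ± 1.90), and in Polysome siRNAG5 SRM (136 ± 47.8) overlapped SMS (105 ± 6.76), SAT1 (27.9 ± 8.80) overlapped AZIN1 (17.4 ± 2.02), and AZIN1 overlapped OAZ2 (14.0 ± 1.69). The union of exons counts every annotated isoform, and it is long beside the canonical transcript for AMD1 (10193 against 3423 bases), OAZ1 (3436 against 1149) and OAZ2 (7671 against 1935). Over the canonical length OAZ1 came to 1510 ± 67.2 and OAZ2, at 52.5 ± 1.84, moved above SAT1 (47.3 ± 11.6) in Input Ctrl with overlap. In Polysome Ctrl, SMS then overlapped ODC1, and AMD1 (27.6 ± 3.78) stood above AZIN1 (21.5 ± 2.29) without overlap, while AZIN1 and AMD1 overlapped in Polysome siRNAG5, so the order of AMD1 and AZIN1 depends on the length used.

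Among the synthesis enzymes, SRM had the lowest values after silencing relative to Ctrl. SRM (chr1:11054584-11060020, - strand) read 659.9, 798, 749.9 and 734 CPM in Input Ctrl 1 to 4 and 403, 387, 393 and 377 CPM in Input siRNAG5 1 to 4. The groups did not overlap, and the siRNAG5 libraries varied less than the Ctrl libraries. The change in Input, which chose this gene, was log2 FC -0.90 (SE 0.06). In Polysome SRM read 574, 532, 397 and 391 CPM in Ctrl 1 to 4 and 278, 184, 189.8 and 376 CPM in siRNAG5 1 to 4. The choice did not name this fraction, but the study fractionated the same lysates. The Polysome values and tests of SRM are therefore not independent of the choice. Again every siRNAG5 library lay below every Ctrl library, by a narrow margin between siRNAG5 4 and Ctrl 4. The log2 FC was -0.85 (SE 0.25, 95% interval -1.39 to -0.31), which did not pass in edgeR's quasi-likelihood test (adjusted p 0.0549). SRM was highest, within its treatment, in the 3 Polysome libraries that stood apart, at 574 CPM against 391 to 532 in Ctrl and at 278 and 376 against 184 and 189.8 in siRNAG5. Without these 3 libraries the log2 FC was -1.18 (edgeR adjusted p 0.00249), and with their membership as a term in the edgeR fit it was -1.05 (adjusted p 1.15e-04). Leaving out 1 library at a time gave log2 FC of -1.08 to -0.70, with edgeR adjusted p of 0.0202 to 0.17. Only 1 of these 8 fits gave a call, the one without siRNAG5 4 (log2 FC -1.08, edgeR adjusted p 0.0202).

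ODC1, the rate-limiting enzyme of the pathway (chr2:10439968-10448327, - strand), was lower in siRNAG5 cells in both fractions. Its Input levels were 498, 508, 471 and 461 CPM in Ctrl 1 to 4 and 346, 324, 373 and 342 CPM in siRNAG5 1 to 4. No library overlapped the other group, with log2 FC -0.47 (SE 0.06). In Polysome the levels were 324, 355, 303 and 335 CPM in Ctrl 1 to 4 and 222, 212, 210.3 and 234 CPM in siRNAG5 1 to 4. Here too the groups lay apart, and the fall was log2 FC -0.54 (SE 0.13, 95% interval -0.84 to -0.25, edgeR adjusted p 0.0335). ODC1 was the only one of the 9 called in Polysome, a call being an adjusted p under 0.05 with a log2 FC beyond 0.5. The size changed little with the libraries used, but the call did not hold when any one of 6 libraries (Polysome Ctrl 1, 2 and 4, siRNAG5 1, 2 and 3) was left out, with edgeR adjusted p of 0.058 to 0.103 and log2 FC -0.49 to -0.55. With the 3 libraries that stood apart as a term the log2 FC of ODC1 was -0.56 (edgeR adjusted p 0.0018).

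AMD1 (chr6:110874770-110898879, + strand), source of decarboxylated S-adenosylmethionine, had lower values in siRNAG5 cells in Input, while its Polysome groups overlapped. In Input it read 96.2, 96.7, 81.7 and 83.0 CPM in Ctrl 1 to 4 and 56.0, 68.8, 67.1 and 66.3 CPM in siRNAG5 1 to 4. The 2 groups did not overlap, with log2 FC -0.46 (SE 0.08), and without Input Ctrl 3 and 4, the lowest of their group, it was -0.57. In Polysome AMD1 read 96.6, 112, 86.5 and 82.9 CPM in Ctrl 1 to 4 and 88.7, 76.4, 70.6 and 94.2 CPM in siRNAG5 1 to 4. The overlap came from siRNAG5 1 and 4, which are among the 3 libraries that stood apart, and the log2 FC of -0.16 (SE 0.15, 95% interval -0.49 to 0.17) did not pass (edgeR adjusted p 0.532). Without the 3 libraries the groups did not overlap and the log2 FC of AMD1 was -0.30 (edgeR adjusted p 0.201), and with their membership as a term it was -0.22 (edgeR adjusted p 0.165). The Polysome change less the Input change was 0.27 on the log2 scale (95% interval -0.08 to 0.63), and it did not pass either (edgeR adjusted p 0.792).

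SMS, the last enzyme of the chain (chrX:21940709-21994837, + strand), showed little difference between treatments. It ranged from 220.1 to 242 CPM in Input Ctrl and from 209 to 235 CPM in Input siRNAG5, with log2 FC -0.05 (SE 0.06). In Polysome it ranged from 231 to 292 CPM in Ctrl and from 211 to 243 CPM in siRNAG5. The groups overlapped in both fractions, and the Polysome log2 FC of -0.17 (95% interval -0.49 to 0.15) did not pass (edgeR adjusted p 0.478).

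**Figure D2:**
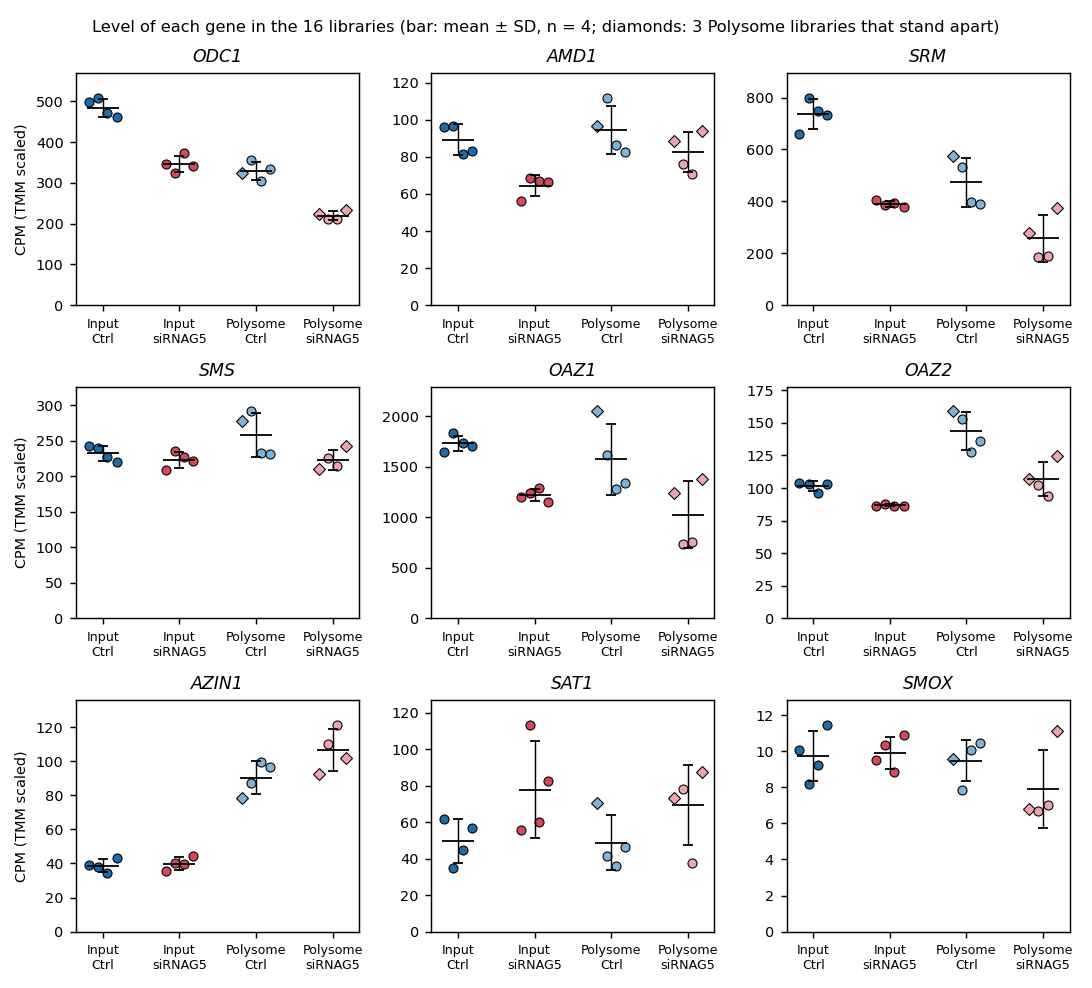
Level of each of the 9 genes in the 16 libraries (CPM, linear axis from 0, 1 point per library, with mean ± SD of 4), with diamonds for the 3 Polysome libraries that stood apart. SRM and ODC1 have all siRNAG5 points below all Ctrl points in both fractions, and AZIN1 has all Polysome points (78.3 to 121 CPM) above all Input points (34.5 to 44.2 CPM).

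The antizyme mRNAs were lower in siRNAG5 cells by value, while the mRNA of the inhibitor was not. OAZ1 (chr19:2269509-2273490, + strand), the main antizyme, read 1652, 1837, 1735 and 1711 CPM in Input Ctrl 1 to 4 and 1199, 1245, 1295 and 1153 CPM in Input siRNAG5 1 to 4. The groups did not overlap, and the log2 FC of -0.49 (SE 0.06) lay just short of the size used for calls. In Polysome OAZ1 read 2051, 1623, 1283 and 1344 CPM in Ctrl 1 to 4 and 1244, 741, 752 and 1377 CPM in siRNAG5 1 to 4. Within each treatment the libraries that stood apart (Ctrl 1, siRNAG5 1 and siRNAG5 4) were the highest, and siRNAG5 4 exceeded Ctrl 3 and 4. The log2 FC in Polysome was -0.58 (SE 0.26, 95% interval -1.14 to -0.02) and did not pass (edgeR adjusted p 0.168). Without these 3 libraries it was -0.87 (edgeR adjusted p 0.0139), and with their membership as a term -0.79 (edgeR adjusted p 0.0012).

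OAZ2 (chr15:64687573-64703281, - strand), a second antizyme with the same frameshift site, moved less in Input. It read 104, 103, 96.3 and 103 CPM in Input Ctrl 1 to 4 and 86.5, 88.1, 86.5 and 86.2 CPM in siRNAG5 1 to 4, a log2 FC of -0.21 (SE 0.06) with no overlap. In Polysome it read 159, 153, 127 and 136 CPM in Ctrl 1 to 4 and 107, 103, 93.8 and 125 CPM in siRNAG5 1 to 4. No siRNAG5 library reached the lowest Ctrl library, siRNAG5 4 coming closest, and the log2 FC of -0.38 (SE 0.14, 95% interval -0.70 to -0.07) did not pass (edgeR adjusted p 0.111).

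AZIN1, the antizyme inhibitor (chr8:102826111-102893864, - strand), read 39.0, 38.0, 34.5 and 43.5 CPM in Input Ctrl 1 to 4 and 35.3, 40.5, 39.4 and 44.2 CPM in Input siRNAG5 1 to 4. The groups overlapped almost wholly (log2 FC 0.06, SE 0.09). In Polysome it read 78.3, 87.0, 99.2 and 96.7 CPM in Ctrl 1 to 4 and 92.2, 110.01, 121 and 102 CPM in siRNAG5 1 to 4. The log2 FC of 0.28 (SE 0.14, 95% interval -0.02 to 0.58) did not pass (edgeR adjusted p 0.21). In contrast to SRM, OAZ1 and OAZ2, AZIN1 was lowest, within its treatment, in the 3 libraries that stood apart. With their membership as a term its log2 FC was 0.34 with an edgeR adjusted p of 0.017, still under the size used for calls.

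Of the catabolic genes, SAT1 had the widest spread between libraries. SAT1 (chrX:23783173-23786210, + strand), whose enzyme acetylates spermidine and spermine for export, read 61.9, 34.9, 44.6 and 56.9 CPM in Input Ctrl 1 to 4 and 55.7, 114, 60.01 and 82.6 CPM in Input siRNAG5 1 to 4. Its groups overlapped although the log2 FC was 0.67 (SE 0.15), and without siRNAG5 2, the highest library, it was 0.44. In Polysome it read 70.4, 41.7, 36.2 and 46.4 CPM in Ctrl 1 to 4 and 73.2, 78.5, 37.8 and 87.8 CPM in siRNAG5 1 to 4. The log2 FC of 0.55 (SE 0.27, 95% interval -0.04 to 1.13) did not pass (edgeR adjusted p 0.209). SMOX (chr20:4120980-4187747, + strand), which oxidises spermine back to spermidine, stayed between 8.16 and 11.5 CPM in the 8 Input libraries (log2 FC 0.05, SE 0.12). In Polysome it was 7.83 to 10.5 CPM in Ctrl and 6.66 to 11.1 CPM in siRNAG5, and the log2 FC of -0.22 (95% interval -0.65 to 0.20) did not pass (edgeR adjusted p 0.491).

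**Figure D3:**
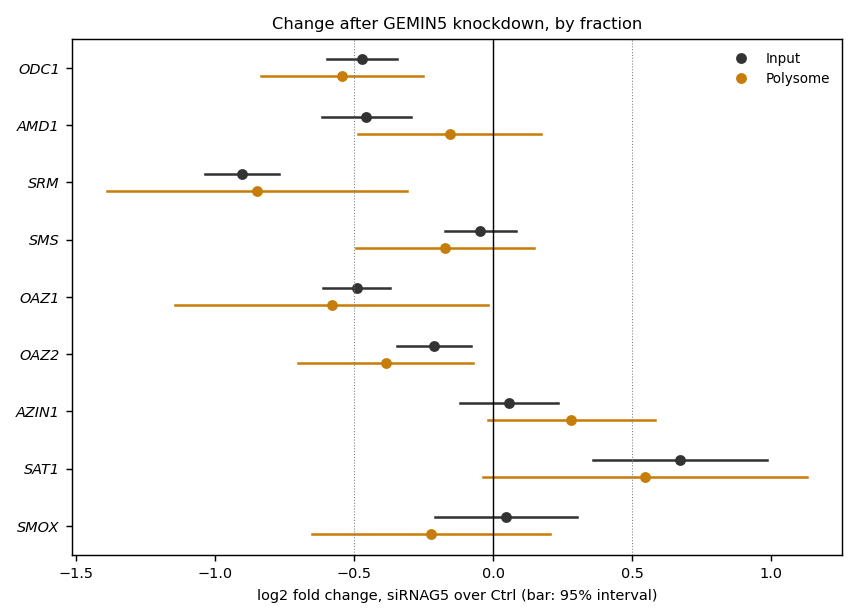
Log2 fold change of each gene, siRNAG5 over Ctrl, in Input and Polysome (points, with 95% intervals as bars, dotted lines at ±0.5). SRM lies at -0.90 and -0.85, ODC1 at -0.47 and -0.54, and SAT1 at 0.67 and 0.55, and the Polysome intervals are the wider ones.

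Counted over the list, 6 of the 9 genes had a negative log2 FC in Input and 7 of 9 in Polysome, with medians of -0.21 and -0.22 beside 0.04 and 0.03 over all genes tested. The Input counts rest on the contrast that chose the list and are read no further. In Polysome 1 of 9 was called lower (ODC1) beside 4% of 14420 genes, and none higher beside 3.95%. Polysome groups did not overlap for 3 of the 9 (ODC1, SRM and OAZ2), all lower in siRNAG5, beside 18.3% of all genes in either direction. Input groups did not overlap for 5 of the 9 (ODC1, AMD1, SRM, OAZ1 and OAZ2), all lower, beside 34.2% in either direction. This Input count is a description from the contrast that chose the list, and both shares pool the 2 directions. With the 3 libraries left out or as a term, SRM, ODC1 and OAZ1 were called lower in Polysome, SRM not being independent of the choice. In these 2 fits 1788 of 14717 and 1734 of 14420 genes were called lower, against 577 in the main fit. Without the 3 libraries the other log2 FC in Polysome were -0.59 for ODC1, -0.44 for OAZ2, -0.14 for SMS, 0.35 for AZIN1, 0.55 for SAT1 and -0.41 for SMOX, of which ODC1 passed (edgeR adjusted p 0.0242) and the remaining 5 did not (edgeR adjusted p 0.0542 to 0.572). Direction in Polysome also depended on scaling. With total counts in place of TMM the median over all genes moved from 0.03 to 0.38, and the genes called went from 577 lower and 569 higher to 207 lower and 2307 higher. ODC1 was then at -0.19 and not called (edgeR adjusted p 0.19), while AZIN1 (0.63, edgeR adjusted p 0.0387) and SAT1 (0.89, edgeR adjusted p 0.0344) were called higher.

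The changes in the 2 fractions were then compared directly. In 1 fit over the 16 libraries, the Polysome log2 FC minus the Input log2 FC ranged from -0.29 (SMOX) to 0.27 (AMD1) over the 9 genes on the log2 scale. None of the 9 was called in edgeR, with adjusted p from 0.792 to 0.963 over the 8 genes other than SRM, and 0% of all 14958 genes were called, although 701 genes had an unadjusted p under 0.05 with a lower and 388 with a higher value, and DESeq2 called 12 and 18. For SRM, whose Input change is part of the choice, the difference was 0.03 (95% interval -0.52 to 0.58), with no test. These intervals do not show that the fractions changed alike: that of SAT1 ran from -0.92 to 0.64.

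Polysome and Input levels of the same mRNAs were compared next, relative to TMM scaling. These fits, and that of the difference above, treated libraries as independent, although the study took both fractions from the same lysates. Fits with a replicate block are given below. AZIN1 was higher in Polysome than in Input by log2 1.23 in Ctrl (SE 0.12, edgeR adjusted p 9.65e-07) and by 1.50 in siRNAG5 (SE 0.13, edgeR adjusted p 3.15e-06). These are 2.35-fold and 2.83-fold differences, and each Polysome library exceeded each Input library. OAZ2 was higher by log2 0.51 in Ctrl (SE 0.12, edgeR adjusted p 0.00176) and by 0.38 in siRNAG5 (SE 0.10, edgeR adjusted p 0.00894), the latter under the size used for calls. AMD1 was higher by 0.43 in siRNAG5 (SE 0.12, edgeR adjusted p 0.00876), also short of a call, and by 0.09 in Ctrl, which did not pass (edgeR adjusted p 0.578).

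ODC1 was lower in Polysome than in Input, by log2 FC -0.54 in Ctrl (SE 0.12, edgeR adjusted p 0.00151) and -0.57 in siRNAG5 (SE 0.10, edgeR adjusted p 5.74e-04), with no overlap of libraries. SRM stood at -0.62 (SE 0.15) and -0.53 (SE 0.19), given without a test because its Input levels are part of the choice. SMS, OAZ1, SAT1 and SMOX lay between -0.25 and 0.17 in both treatments, and none passed (edgeR adjusted p of 0.258 to 0.966). Of the 8 genes other than SRM, 1 was called lower (ODC1) and 2 higher (AZIN1 and OAZ2) in Ctrl, where 18.8% and 20.8% of all genes were called, and 1 was called lower (ODC1) and 1 higher (AZIN1) in siRNAG5, where the shares were 21.2% and 23.9%. Groups did not overlap for 4 of 9 in Ctrl and 5 of 9 in siRNAG5, beside 44.4% and 50.4% of all genes.

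**Figure D4:**
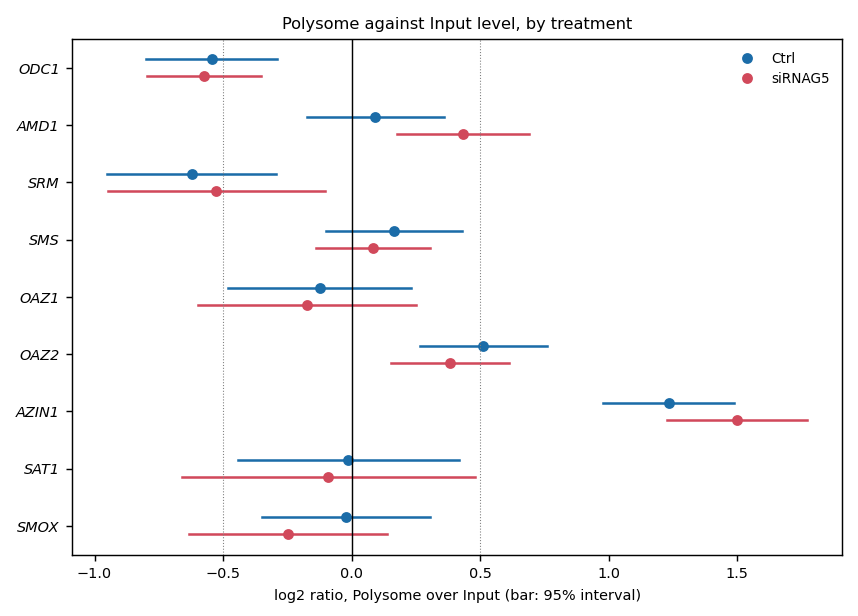
Log2 ratio of Polysome over Input for each gene in Ctrl and siRNAG5 cells (points, with 95% intervals as bars, dotted lines at ±0.5). AZIN1 stands at 1.23 and 1.50, above the other 8 genes, while ODC1 (-0.54 and -0.57) and SRM (-0.62 and -0.53) lie lowest.

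These ratios are relative to the typical mRNA, since scaling factors were 0.741 to 0.852 in Input and 0.975 to 1.59 in Polysome. With total counts alone the median over all genes moved from -0.03 to 0.51 in Ctrl and from -0.04 to 0.69 in siRNAG5. AZIN1 (1.78 and 2.25) and OAZ2 (1.04 and 1.11) were then still above that median and ODC1 (-0.01 and 0.16) and SRM (-0.10 and 0.18) below it, but the call of ODC1 did not hold. Single libraries mattered for sizes close to 0.5: OAZ2 in Ctrl was 0.48 without Input Ctrl 3 and 0.45 and 0.47 without Polysome Ctrl 1 and 2, ODC1 in Ctrl was -0.49 without Polysome Ctrl 3, and AMD1 in siRNAG5 was 0.50 and called (edgeR adjusted p 0.00489) without Polysome siRNAG5 3. Without Input Ctrl 3 and 4, the Input libraries with liver reads, OAZ2 in Ctrl was 0.46 (edgeR adjusted p 0.0644). Without the 3 Polysome libraries that stood apart, OAZ1 in siRNAG5 was called lower in Polysome, at -0.53 (edgeR adjusted p 1.94e-06).

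Further genes of polyamine metabolism were followed with a list of 26, of which 21 were tested in each fraction. In Input 4 of 21 fell (ADI1, EIF5A, DOHH and OAZ3) beside 6.02% of 14134 genes tested, and 1 rose (AZIN2) beside 10.5%, with a median log2 FC of -0.07 over the 21. In Polysome 3 of them fell (ADI1, DOHH and EIF5A) and none rose, beside 4% and 3.95% of all genes, with a median of -0.04. Without the 3 Polysome libraries that stood apart, 5 of 23 tested were called lower, MAT1A and SAT2 being the further ones, beside 1788 of 14717 genes. With total counts 1 of 21 was called lower (ADI1) and 3 higher (ARG2, AZIN2 and MAT2B), beside 207 and 2307 of 14420 genes. MAT1A is a liver enzyme, and the Polysome Ctrl libraries held the liver reads described above, whose part in its call was not tested. ARG2, MAT1A, MAT2B and SAT2 are named here after their values were seen. The list was drawn up with earlier results of these data known.

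The translation factor eIF5A carries hypusine, an amino acid made from spermidine, and DOHH completes that modification. EIF5A fell in Input from 1366 ± 76.7 to 851 ± 43.5 CPM (SD, n = 4), a log2 FC of -0.67 (SE 0.06, edgeR adjusted p 1.07e-09). In Polysome it fell from 2001 ± 289 to 1144 ± 164 CPM, by log2 FC -0.77 (SE 0.19, edgeR adjusted p 0.0349). The Polysome call of EIF5A did not hold when any one of 6 libraries was left out (Ctrl 1, 2 and 4, siRNAG5 1, 2 and 3; edgeR adjusted p 0.0602 to 0.11), and with total counts its log2 FC was -0.41, short of a call. DOHH fell from 17.8 ± 2.66 to 11.4 ± 1.57 CPM in Input (log2 FC -0.64, SE 0.12, edgeR adjusted p 1.01e-04) and from 24.4 ± 2.60 to 13.9 ± 2.65 CPM in Polysome (log2 FC -0.78, SE 0.16, edgeR adjusted p 0.0174). In Polysome the DOHH call was lost without Ctrl 2, siRNAG5 1 or siRNAG5 3, with edgeR adjusted p of 0.053 to 0.0715, and with total counts (log2 FC -0.43, edgeR adjusted p 0.112). DHPS, which carries out the first step of hypusination, was higher in Input by log2 0.46 (edgeR adjusted p 2.08e-06), under the size used for calls. In Polysome DHPS was at 0.12 with overlapping groups and did not pass (edgeR adjusted p 0.613).

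ADI1, an enzyme of the methionine salvage that recycles the by-product of spermidine and spermine synthesis, fell from 287 ± 40.1 to 157 ± 15.2 CPM in Input (log2 FC -0.86, SE 0.08, edgeR adjusted p 2.27e-09). In Polysome it fell from 353 ± 79.0 to 176 ± 30.4 CPM (log2 FC -0.96, SE 0.20, edgeR adjusted p 0.0174), and without Polysome Ctrl 2 the adjusted p was 0.0675. AZIN2, the second antizyme inhibitor, rose in Input from 13.4 ± 2.62 to 20.0 ± 1.58 CPM (log2 FC 0.60, SE 0.12, edgeR adjusted p 1.43e-04), and without Input Ctrl 2 the log2 FC was 0.48. OAZ3, an antizyme known from testis, read only 2.76 to 4.45 CPM in Input Ctrl and 2.21 to 2.75 CPM in Input siRNAG5. Its log2 FC was -0.57 (SE 0.20, edgeR adjusted p 0.0233), and it was not called without Input Ctrl 2, Input Ctrl 4 or siRNAG5 4 (edgeR adjusted p 0.0582 to 0.117) or in DESeq2 (adjusted p 0.0609). OAZ3 overlaps MRPL9 and TDRKH on the opposite strand, and reads of the overlap cannot be assigned with certainty since the counting mode for strand was not given. The same limit holds for EIF5A (GPS2), DHPS (WDR83) and ADI1 (genes with identifiers only), each overlapped on the opposite strand. DHPS also shares bases with a gene on its own strand, while DOHH and AZIN2 overlap no annotated gene.

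**Figure D5:**
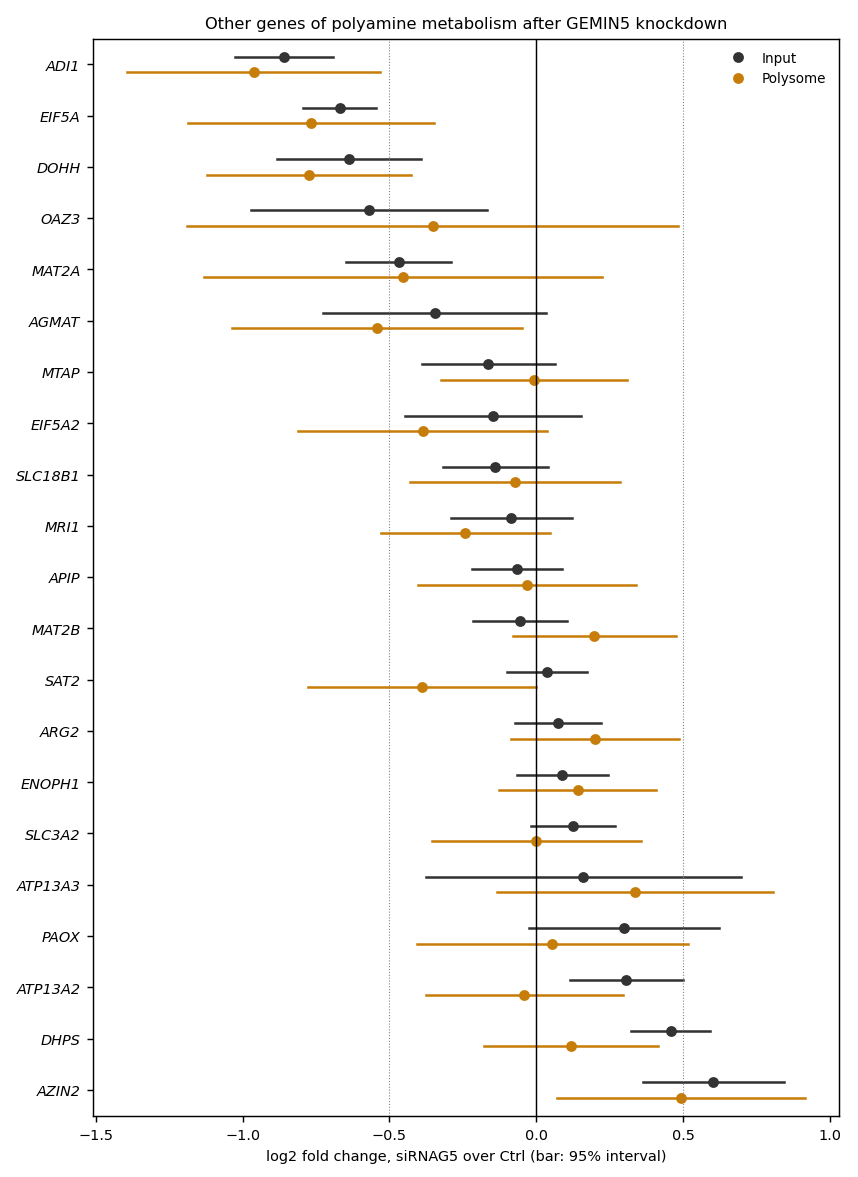
Log2 fold change, siRNAG5 over Ctrl, of the 21 other genes of polyamine metabolism that were tested in Input, ordered by that change, in Input and Polysome (points, with 95% intervals as bars, dotted lines at ±0.5). ADI1 (-0.86 and -0.96), EIF5A (-0.67 and -0.77) and DOHH (-0.64 and -0.78) are lowest in both fractions, and AZIN2 (0.60 and 0.49) is highest.

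Profiles over the 16 libraries were compared across genes by the root mean square difference of log2 CPM, each gene centred on its own mean, over 14957 other genes. The closest to SRM were SLC35B1 (0.13), JTB (0.13), GAL (0.13), DCXR (0.13) and DANCR (0.14), where the profile of SRM itself had a spread of 0.62 on this scale. The closest gene was PSMC5 (0.08) for ODC1, METTL6 (0.08) for AMD1, GTF2E2 (0.07) for SMS, MRPL34 (0.07) for OAZ1, BIRC5 (0.07) for OAZ2 and NSD3 (0.09) for AZIN1. For SAT1 it was SPAG4 (0.22) and for SMOX ESRRA (0.13). These distances describe likeness over libraries that share fractions, treatments and scaling, and carry no test.

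Several loci share bases with another annotated gene. On the opposite strand these were JSRP1 for OAZ1 and genes with identifiers only for OAZ2, with MAILR and others for AZIN1. On the same strand, where stranded counting cannot separate them, they were the small nucleolar RNA SNORA80B for ODC1 and 1 gene with an identifier only for each of OAZ1, AZIN1 and SAT1. Pseudogenes named after AMD1, OAZ1, ODC1, SMS and SRM held 0 to 3 reads in any library, apart from the chromosome Y copy of AMD1P2, which was not among the counted genes.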

How the data were processed

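Per the labels and the study's methods, mRNA libraries were stranded, STAR 2.5.3a placed the reads on GRCh38, and QoRTs assigned them to genes of Ensembl. The authors deposited the raw counts per gene, not normalized, for each library. The strand setting of the counting is not given in the sources used here. Reads placed in several loci (4.88 to 6.04% in Input, 21.2 to 42.4% in Polysome), in no gene or in more than 1 gene were listed apart and left out. The 9 genes and all gene lists were chosen with earlier results of these data known. Symbols and coordinates are from GENCODE 44 on GRCh38.

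The quasi-likelihood test of edgeR 4.0.16 (R 4.3.3) was run after filterByExpr and TMM scaling, with Benjamini-Hochberg adjustment over all genes tested, each comparison on its own libraries with no covariate, and the difference of the changes on all 16. Genes were called where the adjusted p was under 0.05 and the log2 FC exceeded 0.5 in size. SE is the log2 FC over the root of its F statistic. All 9 genes passed the filter in each comparison. The fits were tested on simulated data. Alternatives were DESeq2 1.42.0, RLE factors, total counts, no filter, a replicate block, all libraries in 1 fit, the 3 Polysome libraries left out or as a term, Input Ctrl 3 and 4 left out, and each library left out. Named were the 9 genes, GEMIN5, listed polyamine genes called in either treatment comparison (DHPS was added after its value was seen), and the closest profiles. Figures were drawn with matplotlib 3.10.9.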

Additional observations from a re-analysis of the deposited data

Results flagged for a closer look

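Of the 36 sets of 4 libraries (9 genes in 4 groups), 3 held a library whose gap to its nearest neighbour, over the range of the set, exceeded Dixon's 95% critical value for 4 samples. Chance flags about 1 in 20 such sets. OAZ2 in Input Ctrl 3 read 96.3 CPM, with the next library at 103 CPM (gap 0.851 of the range). OAZ2 in Input siRNAG5 2 read 88.1 CPM, with the next at 86.5 CPM (gap 0.836 of a range that was narrow in all). SMOX in Polysome siRNAG5 4 read 11.1 CPM, with the next at 7.01 CPM (gap 0.921), and without this library the log2 FC of SMOX in Polysome was -0.42, against -0.22 with it.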

How the results depend on the processing

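Of 774 refits of a single gene's log2 FC (9 genes, 5 comparisons), 666 kept direction and call, 28 gained a call, 29 lost one and 51 changed sign. The tally includes SRM and the Input contrast that chose the list, where a call is a description only. Total counts and the fits without Input Ctrl 3 and 4 were chosen after seeing the data, and the cause of each change below was not tested unless the text names it. The fits that leave out or model the 3 Polysome libraries rest on a set drawn from these same data. Within each treatment, SRM, OAZ1 and OAZ2 were highest in that set.

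In Input, the contrast that chose the list, members past the limits of a call are given as a description only: 1 with all 16 libraries in 1 fit and 5 without Input Ctrl 3 and 4, against 2. In Polysome the genes called, 1146 in all, were 1971 with DESeq2, 1766 with no filter, 2514 with total counts, 2597 with all 16 libraries, 3115 without the 3 libraries and 3482 with them as a term. Members called there were 2 with DESeq2, 2 with total counts (both higher), and 3 in each of the last 3 of these fits, against 1 (lower). With total counts the genes called lower and higher went from 851 and 1479 to 450 and 2175 in Input, from 2566 and 2842 to 758 and 6246 for Polysome over Input in Ctrl, and from 3132 and 3535 to 797 and 8516 in siRNAG5. For the difference of the changes, 30 genes were called with DESeq2, 57 with no filter, 765 and 392 without the 3 libraries and with them as a term, and 9 without Input Ctrl 3 and 4, against 0, but no member. For Polysome over Input in siRNAG5, 6 members were called with total counts, all higher, against 3, of which SRM is a description.

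Sign changes with total counts were SMS in Input (0.061), AMD1 (0.19), SMS (0.19) and SMOX (0.10) in Polysome, and ODC1 (0.17), SMS (0.13), OAZ1 (0.14), OAZ2 (0.073) and SAT1 (0.12) for the difference. They were also OAZ1 (0.40), SAT1 (0.51) and SMOX (0.52) for Polysome over Input in Ctrl, and ODC1 (0.16), SRM (0.18), OAZ1 (0.53), SAT1 (0.63) and SMOX (0.47) in siRNAG5. Without scaling factors the median of all genes moved by design. The difference for SRM became -0.31 without the 3 libraries and -0.17 with them as a term. For Polysome over Input in Ctrl, AMD1 became -0.040 without Input Ctrl 3 and 4, SAT1 became 0.0097 with DESeq2, 0.020 with no filter and 8.11e-04 without Input Ctrl 3 and 4, and SMOX became 0.0085, 0.014 and 0.053 in the same fits.

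Leaving out 1 library at a time gave 0 to 2 members called in Polysome, 189 to 1523 genes called in Polysome (189 without Ctrl 2) and 0 to 1 for the difference. In Input 1 to 4 members lay past the limits of a call, which is a description only. The log2 values that crossed 0 were AZIN1 (-6.16e-04 to 0.11) and SMOX (-0.034 to 0.13) in Input, SRM (-0.21 to 0.18), OAZ1 (-0.28 to 0.066) and SAT1 (-0.28 to 0.11) for the difference, AMD1 (-0.013 to 0.15), SAT1 (-0.25 to 0.12) and SMOX (-0.11 to 0.060) for Polysome over Input in Ctrl, and SAT1 (-0.23 to 0.14) in siRNAG5.

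Same-numbered libraries of the 2 treatments correlated from -0.53 to 0.483 in their deviations from the group means, and those of the 2 fractions from -0.207 to 0.222. The main fits did not pair libraries by number. The study took both fractions from individual lysates, so Input and Polysome libraries of 1 lysate are not independent, which the main fits leave out. With the replicate number as a block (replicate block), genes called were 2313 in Input, 1002 in Polysome, 0 for the difference, and 5531 and 6704 for Polysome over Input in Ctrl and siRNAG5. ODC1 in Polysome then missed the threshold (adjusted p 0.073 in edgeR), SRM passed it (adjusted p 0.047), the difference for SRM was -0.014, and no other call of the 9 genes changed. Of the other polyamine genes, EIF5A in Polysome missed the threshold under the block (log2 FC -0.76, edgeR adjusted p 0.0677). The order of length-scaled levels in Input Ctrl kept 7 of 9 ranks with canonical lengths and 9 with TPM, and 11 of 13 closest profiles were shared under the mean absolute difference.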

Other observations

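The balance of antizyme inhibitor to ornithine decarboxylase mRNA was followed as the ratio of AZIN1 to ODC1, both as CPM per kilobase of exon union, a measure chosen after the values were seen and given without a test. It was 0.0395 to 0.0509 in Input Ctrl, 0.055 to 0.0697 in Input siRNAG5, 0.13 to 0.176 in Polysome Ctrl and 0.224 to 0.311 in Polysome siRNAG5. The 4 groups did not overlap, and their means ± SD were 0.0433 ± 0.00522, 0.0623 ± 0.00735, 0.149 ± 0.0219 and 0.263 ± 0.0406 (n = 4). Over canonical transcript lengths the means were 0.0473, 0.0681, 0.163 and 0.287. The ratio does not depend on library scaling, since both genes come from the same library, but the Input part of it includes ODC1 values from the contrast that chose the list.

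In Polysome the 3 libraries that stood apart differed from the rest by gene. Within siRNAG5, the mean CPM of the 2 such libraries over that of the other 2 was 1.76 for OAZ1, 1.75 for SRM, 1.38 for SAT1, 1.31 for SMOX, 1.24 for AMD1, 1.18 for OAZ2, 1.08 for ODC1, 1.03 for SMS and 0.839 for AZIN1. In Ctrl, with 1 such library against 3, it was 1.45 for OAZ1, 1.30 for SRM, 1.6999 for SAT1, 1.01 for SMOX, 1.03 for AMD1, 1.15 for OAZ2, 0.980 for ODC1, 1.10 for SMS and 0.830 for AZIN1.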
